A study of Mus musculus with 4 samples.

Results

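This account follows 7 microRNA genes that are abundant in pancreatic islets (Mir7-1, Mir7-2, Mir375, Mir184, Mir182, Mir96 and Mir183) in the mouse cell line Beta-TC-6, established from insulin-producing beta cells. They were chosen by name, as probe sets whose only platform gene symbol is a member. Each of the 7 had 1 such probe set, out of 22180 genes measured in this way, 478 of them microRNA genes. The choice was made with earlier results of these data in view, so the levels and differences of these genes are given as a description, without a test of their own.

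The cells were transfected with a mixture of siRNA duplexes against NF90 (siNF90, 2 arrays) or with a negative control siRNA (siNTC, 2 arrays), both with a lipid reagent, in medium with a high glucose content and serum. NF90 binds double-stranded RNA. Total RNA was hybridised to Affymetrix Mouse Gene 2.1 ST arrays, which carry 1 colour, and no age, time after transfection or culture is named in the labels. Whether the 2 arrays of 1 group stand for separate cultures is not said there, so p-values cover no more than the spread among the 4 arrays and could be technical. The depletion of NF90 itself is not reported here, so siNF90 arrays are described by their label.

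A microRNA is cut from a hairpin in a longer primary transcript by Drosha with its partner Dgcr8, then from the hairpin by Dicer1, and one strand guides an Argonaute protein to messenger RNAs that match its seed. NF90, in a complex with NF45, is known to bind some primary transcripts, those of the miR-7 family among them, and to hinder their cutting by Drosha. In the beta cell, miR-7 restrains insulin release and growth signals, miR-375 restrains insulin release and is needed for a normal mass of endocrine cells, and miR-184 restrains Ago2. Mir183, Mir96 and Mir182 form a cluster that is best known from sensory organs. The array reads RNA that carries the hairpin sequence, and no value here separates a mature microRNA from its precursors.

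The hairpins of Mir7-1 and Mir7-2 are shown because they give the same mature strand from different genes. Their differences on the arrays had opposite signs, that of Mir7-1 being small, and the contrast between them was not tested. The capitals mark the mature miR-7a-5p. Sequences are from RefSeq, build GRCm38.p6, where Mir7-1 lies at chr13:58392779-58392886 on the minus strand and Mir7-2 at chr7:78888277-78888373 on the plus strand.
Mir7-1: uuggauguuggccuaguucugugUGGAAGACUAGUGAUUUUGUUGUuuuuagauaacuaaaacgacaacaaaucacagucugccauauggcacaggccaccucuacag
Mir7-2: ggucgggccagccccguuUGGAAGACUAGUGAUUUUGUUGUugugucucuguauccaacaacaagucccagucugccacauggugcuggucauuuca
A global alignment of the whole hairpins, shared mature strand included, had identical bases in 75 of 109 columns (68.8%).

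The mature strands are shown with the seed, bases 2 to 8, in capitals, to set out which genes share one.
miR-7a-5p: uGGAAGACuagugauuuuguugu
miR-7b-5p: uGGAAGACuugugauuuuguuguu
miR-182-5p: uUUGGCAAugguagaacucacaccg
miR-96-5p: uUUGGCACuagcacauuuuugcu
miR-183-5p: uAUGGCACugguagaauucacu
miR-184-3p: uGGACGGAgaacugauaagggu
The seed GGAAGAC is held by 3 genes of the RefSeq table, Mir7-1, Mir7-2 and Mir7b, the gene of the family outside the set. Counted from the 5′ end, miR-7b-5p differs from miR-7a-5p by A10U, outside the seed, and by 1 more base at its end. Within the cluster the seeds are close but not shared: miR-96-5p differs from miR-182-5p by A8C within the seed, and miR-183-5p from miR-96-5p by U2A. Outside it, miR-1271-5p has the same seed as miR-96-5p in the RefSeq table. All 7 genes had a hairpin in that table.

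The level of each gene is described against the median of its array, which lay between 1.65 and 1.68 (log2) over 41345 probe sets. Probes differ in how well they bind, so a level places a probe set on its array and does not rank the genes among themselves. Mir375 lay above the median on each array, at 2.98 and 3.24 in siNTC and 2.84 and 2.98 in siNF90, with between 66.8% and 70.1% of probe sets below it. Mir7-1 also lay above it on each array, by 0.16 to 0.53. Mir7-2 lay near the median in siNTC and above it in siNF90. In such bulk RNA, fewer cells that express a gene and less RNA per cell cannot be told apart. Mir184, Mir182, Mir96 and Mir183 lay below the median on every array, by 0.53 to 1.10. These 4 genes stood at 0.56 to 1.15, inside the range of 13 measured microRNA genes typical of muscle, liver, blood, stroma or exocrine pancreas, 0.33 to 1.81. The table gives no measure of background, so these low values cannot be called detected or undetected.

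**Figure D1:**
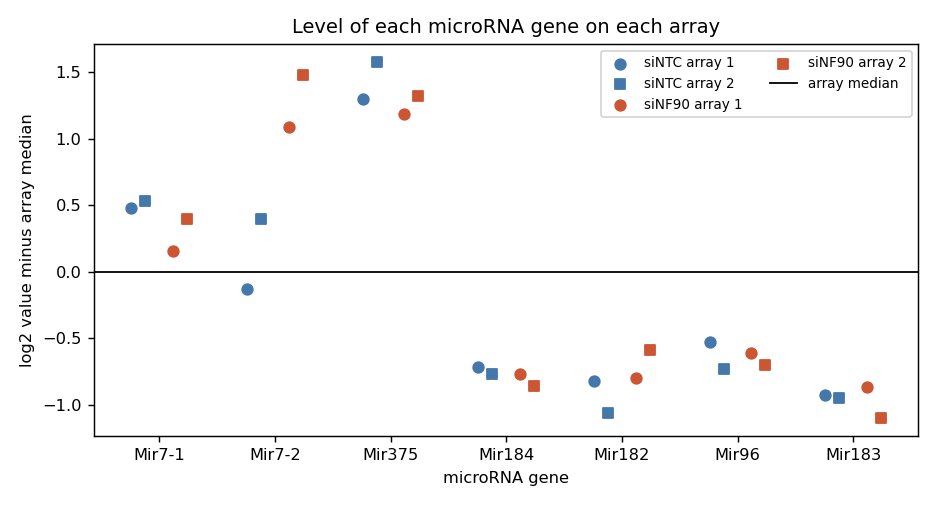
Log2 value minus the array median (y axis) of the 7 microRNA genes (x axis) on each of the 4 arrays; blue points are siNTC arrays, red points siNF90 arrays, circles array 1 and squares array 2. Mir7-2 is the gene whose siNF90 points, 1.09 and 1.48 above the median, stand clear of its siNTC points at -0.13 and 0.40, and 4 genes lie below the line on all arrays.

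Mir7-2, the miR-7a gene that no other RefSeq gene overlaps, was higher in siNF90, by 1.14 ± 0.22 (log2, SE of the fit). This SE is moderated, since eBayes draws the variance of each gene toward a value common to all genes. It is therefore not the spread of that gene's own arrays alone, here or below. Mir7-2 stood at 1.55 and 2.06 in siNTC and at 2.74 and 3.14 in siNF90 (log2). The groups did not overlap, with 0.68 between the nearest values and siNF90 higher, while the arrays of a group were 0.51 (siNTC) and 0.40 (siNF90) apart. Its mean was 1.80 ± 0.36 with siNTC and 2.94 ± 0.28 with siNF90 (SD, n = 2 arrays each). The first siNTC array (1.55) lay inside the range of 0.33 to 1.81 given above for microRNA genes of other cell types and the second (2.06) above it, so the siNTC level cannot be called detected either, and no exact fold is given. Among 478 microRNA genes the difference was the second highest, after Mir543 (1.23 ± 0.27), and the sixth in size, since Mirlet7f-1, Mir186, Mir505 and Mir690, named after their values were seen, differed by more in the other direction. Among the microRNA genes that differed by 2-fold or over, siNF90 was lower in 7 and higher in 2. Over all 22180 genes, 18 were at least 2-fold higher in siNF90 (0.0812%), Mir7-2 among them. Mir7-2 was chosen with this difference known, so the share does not measure how rare it is. Without the first siNTC array the difference was 0.88, under 2-fold.

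Mir7-1, which gives the same mature strand, was lower by a small amount. The siNTC arrays read 2.16 and 2.19 and the siNF90 arrays 1.81 and 2.06. Here siNF90 was lower without overlap, but the nearest values of the groups were 0.10 apart and the siNF90 arrays 0.25. Mir7-1 had means of 2.18 ± 0.02 and 1.94 ± 0.18 (SD, n = 2), a difference of -0.24 ± 0.14 (SE), and -0.12 without the first siNF90 array. Of all microRNA genes, 69.0% had a difference of this size or smaller. Mir7b stood at 1.41 and 1.16 in siNTC and 1.30 and 1.57 in siNF90, with the groups overlapping and a difference of 0.15 ± 0.16 (limma over all genes, adjusted p = 0.795). The difference between Mir7-2 and Mir7-1 was not tested, since both were chosen with these values known.

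Mir375, the most studied islet microRNA, differed by less than the gap of 0.26 between its siNTC arrays. Mir375 averaged 3.11 ± 0.18 with siNTC and 2.91 ± 0.10 with siNF90 (SD, n = 2), a difference of -0.20 ± 0.14 (SE), and the lower siNTC array and the higher siNF90 array both read 2.98. Mir184 stood at 0.96 and 0.89 in siNTC and 0.88 and 0.80 in siNF90, a difference of -0.09 ± 0.12 with 0.01 between the nearest arrays of the groups.

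The 3 genes of the cluster showed differences within the spread between arrays. Mir182 stood at 0.86 and 0.60 in siNTC and 0.85 and 1.07 in siNF90, a difference of 0.23 ± 0.15 (SE). Mir96 stood at 1.15 and 0.93 against 1.04 and 0.96, a difference of -0.04 ± 0.13, and Mir183 at 0.75 and 0.71 against 0.78 and 0.56, a difference of -0.06 ± 0.13. In all 3 the groups overlapped, and each difference was smaller than the gap between the arrays of 1 of its groups. The sign was not stable for Mir96 (-0.15 to 0.07) and Mir183 (-0.17 to 0.05) when each array was left out in turn, so no common or opposite direction is read. The standard errors of the 3 genes were 0.13 to 0.15 and that of Mir375 was 0.14. The fit draws all of them toward a common value, so they do not compare the precision of these genes.

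**Figure D2:**
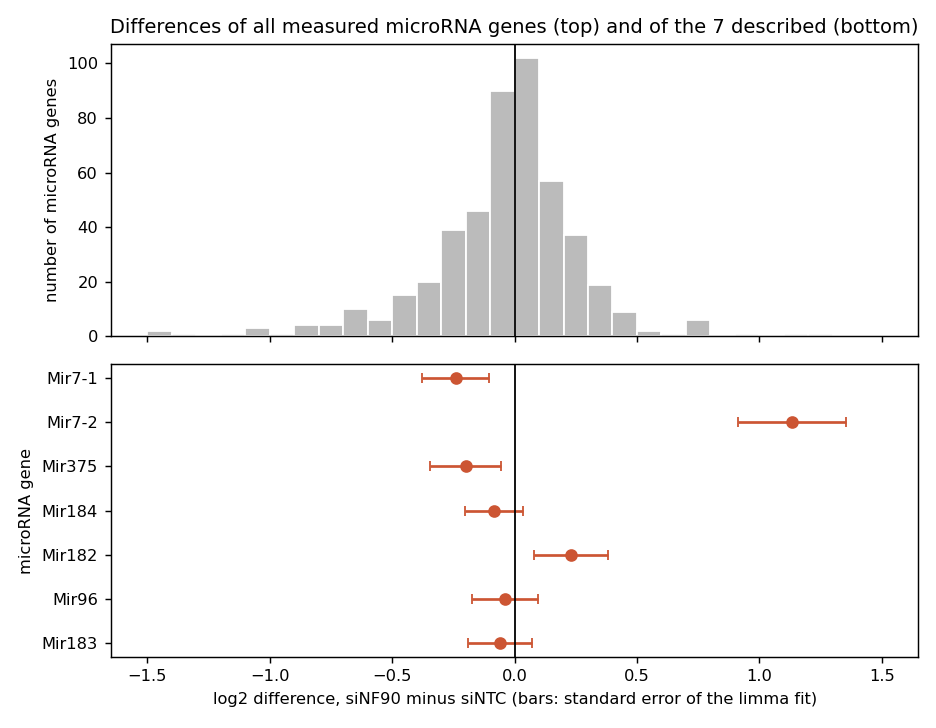
Top, number of microRNA genes (y axis) by log2 difference, siNF90 minus siNTC (x axis), for all 478 measured; bottom, the difference of each of the 7 genes with the standard error of the fit. Mir7-2 lies at 1.14, in the upper tail of the top panel, and the other 6 lie between -0.24 and 0.23.

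As a set, 2 of the 7 genes had a difference above 0 and 5 below it, with a median of -0.06, while the median was 0 over all microRNA genes and 0.02 over all genes. The groups did not overlap for 3 of 7, Mir7-2 upward and Mir7-1 and Mir184 downward, where 39.8% of all genes (21.9% upward, 17.9% downward) and 30.5% of microRNA genes (14% upward, 16.5% downward) were separated in this way. In limma's test over all genes with Benjamini-Hochberg adjustment, 0 of the 7 passed at 0.05, and the background was 0% (0 of 22180 genes). At an unadjusted p under 0.05 there was 1 of 7, Mir7-2, against 10.3% of all genes, and with a variance prior that varies with expression level 0 of 7 passed, against 0.455%. The choice of genes used this contrast, so nothing is read from these counts.

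The genes around the miR-7 hairpins were examined for differences in the same direction. By RefSeq spans Mir7-1 lies within Hnrnpk, which encodes an RNA-binding protein, and 3 probe sets carry the symbol Hnrnpk alone. They did not agree. The brightest, used for Hnrnpk in the fit, had means of 9.01 ± 0.04 and 8.94 ± 0.05 (SD, n = 2) and a difference of -0.07 ± 0.12 (SE). Another stood at 6.53 and 6.43 in siNTC and 6.05 and 5.87 in siNF90, a difference of -0.52, and the dimmest at 1.94 and 1.58 against 2.15 and 2.50, a difference of 0.57. In each of the 3 the groups did not overlap, so the direction of Hnrnpk depends on the probe set. The genome positions of the 3 were not examined. In the order of probe set numbers, the one at -0.52 falls between those of 2210016F16Rik and Mir7-1. The brightest and the dimmest do not, so the brightest need not stand for the locus around Mir7-1. On either side of Mir7-1, 2210016F16Rik differed by -0.01 ± 0.17 and Rmi1 had a difference of 0.82 ± 0.35 that did not pass (limma, adjusted p = 0.499), and the siNTC arrays read 1.91 and 0.79 for Rmi1.

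Mir7-2 lies between Det1, a part of a ubiquitin ligase, and the long noncoding gene Gm39039, which no probe set names alone. Det1 stood at 2.17 and 2.76 in siNTC and 2.24 and 2.28 in siNF90, with overlapping groups (difference -0.20 ± 0.21). Aen, a nuclease gene that p53 activates and the nearest measured gene on the other side, stood at 1.93 and 1.69 against 2.37 and 1.74, also overlapping (0.24 ± 0.23). Neither passed over all genes (limma, adjusted p = 0.787 and 0.77). Aen was named after its values were seen.

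**Figure D3:**
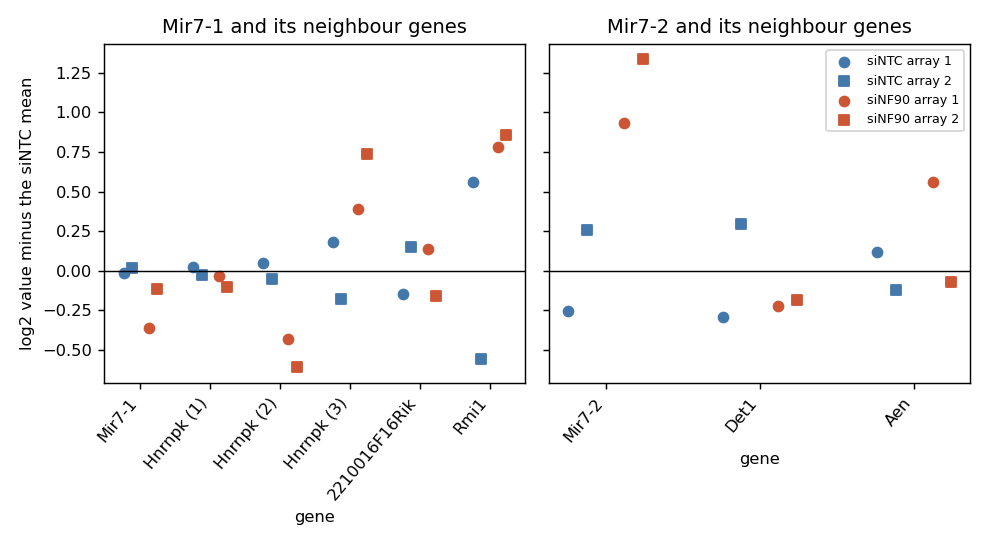
Log2 value minus the gene's siNTC mean (y axis) for Mir7-1 (left) and Mir7-2 (right) with the overlapping or neighbouring genes on the x axis; blue points are siNTC arrays and red points siNF90 arrays, circles array 1 and squares array 2, and Hnrnpk has 3 probe sets from brightest (1) to dimmest (3). The siNF90 points of Mir7-2 lie above its siNTC points, while those of Det1 and Aen overlap them, and the Hnrnpk probe sets part in both directions.

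Near the other genes the values were also close. Cryba2, a crystallin gene beside Mir375, differed by -0.11 ± 0.12 (SE) and Cfap65, on its other side, by 0.00 ± 0.16. Around Mir184, Ankrd34c differed by 0.02 ± 0.18 and 4930524O08Rik by 0.02 ± 0.13. The 3 genes of the cluster lie within the long noncoding gene Mirc35hg, which no probe set names alone. Nrf1, a factor for genes of mitochondria, and BB283400 flank the cluster and differed by 0.01 ± 0.12 and 0.04 ± 0.13. None of these 6 passed over all genes (limma, adjusted p from 0.82 to 0.992).

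Of 9 measured genes listed as acting on miR-7, 2 had a difference above 0 and 7 below it (median -0.14, against 0.02 over all genes), and limma called 0 of them over all genes. The list includes Hnrnpk, within which Mir7-1 lies. It was counted below 0 by its brightest probe set (-0.07), while its other probe sets gave -0.52 and 0.57. Oip5os1 (Cyrano), a long noncoding RNA that leads miR-7 to its decay, had the largest difference. It stood at 4.85 and 5.04 in siNTC and 4.40 and 4.37 in siNF90. The groups did not overlap, and Oip5os1 was 1.47-fold lower (difference -0.56 ± 0.13, adjusted p = 0.357). Cdr1, the gene named at the locus of the circular RNA that binds miR-7, differed by -0.24 ± 0.16 with overlapping groups, and Cdr1os by -0.17 ± 0.12; the circular form is not told apart here. Zswim8, the ligase adaptor of microRNA decay, differed by 0.17 ± 0.13, and Elavl1 (HuR), an RNA-binding protein, by 0.19 ± 0.13. Srsf1, a splicing factor that aids the maturation of miR-7, differed by -0.18 ± 0.16, Qk, an RNA-binding protein, by -0.14 ± 0.12, and Msi2, which acts with HuR on the miR-7 hairpin, by 0.00 ± 0.15.

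Of 17 measured genes published as targets of miR-7, 10 were above 0 and 6 below it, with a median of 0.07, and 0 passed over all genes, while 5 had an unadjusted p under 0.05 (10.3% of all genes did). Those 5 parted in both directions. Basp1, a membrane protein of growth cones, stood at 4.39 and 4.27 in siNTC and 5.34 and 4.96 in siNF90, 1.77-fold higher (difference 0.82 ± 0.16, limma adjusted p = 0.357). Irs2, the adaptor of the insulin receptor that serves beta cell growth, stood at 5.38 and 5.44 against 5.90 and 6.18, 1.55-fold higher (0.63 ± 0.14, limma adjusted p = 0.357). In Basp1 and Irs2 the groups did not overlap. Pik3cd, a catalytic subunit of phosphoinositide 3-kinase, differed by 0.57 ± 0.16 from a low siNTC mean of 1.35.

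Dnajc5, the cysteine string protein of secretory vesicles, went the other way, at 5.54 and 5.43 in siNTC and 4.80 and 5.06 in siNF90, 1.47-fold lower (-0.56 ± 0.14, limma adjusted p = 0.378). Mknk1, a kinase of the translation factor Eif4e, differed by -0.44 ± 0.12, and the groups did not overlap in either gene. Pax6, an islet transcription factor, had the same 2 values, 7.45 and 7.63, in both groups, and Egfr, the receptor of epidermal growth factor, differed by 0.07 ± 0.12. Pik3cd, Dnajc5, Mknk1, Pax6 and Egfr were named after their values were seen.

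**Figure D4:**
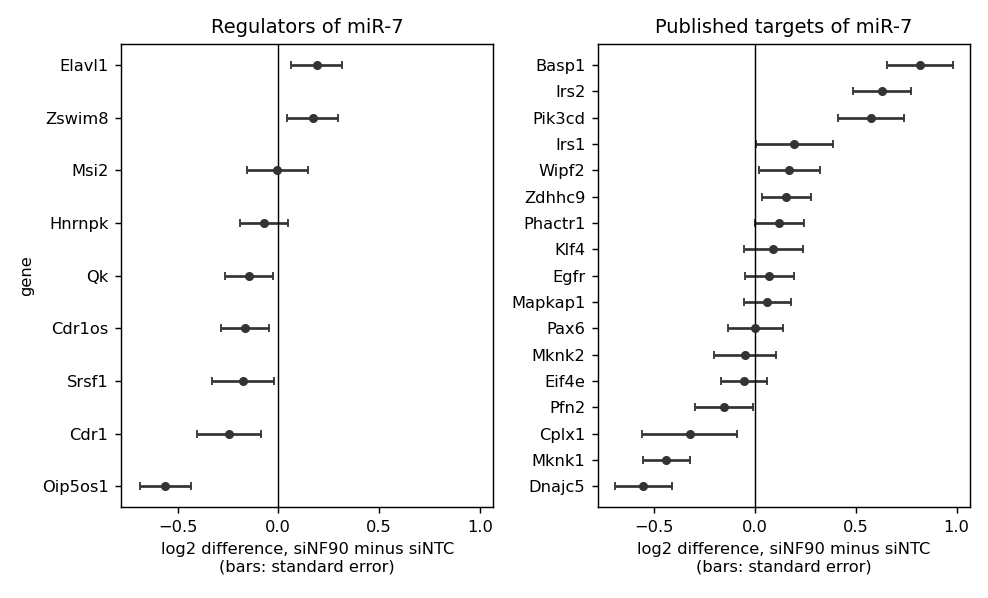
Log2 difference, siNF90 minus siNTC (x axis), of the measured genes listed as acting on miR-7, Hnrnpk included (left), and of those published as its targets (right), with bars for the standard error of the fit. Oip5os1 is lowest on the left at -0.56, and the targets run from -0.56 (Dnajc5) to 0.82 (Basp1) on both sides of 0.

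Targets of the other microRNAs also lay on both sides of 0, and limma called 0 of them over all genes. Of 13 measured targets of miR-375, 7 were above 0 and 6 below it (median 0.02), and 3 had an unadjusted p under 0.05, against 10.3% of all genes. Smarca5, a chromatin remodelling ATPase, stood at 4.78 and 4.77 in siNTC and 4.28 and 4.38 in siNF90 (-0.45 ± 0.12, limma adjusted p = 0.4), and Cadm1, a cell adhesion molecule, at 6.46 on both siNTC arrays against 6.90 and 6.75 (0.36 ± 0.12, limma adjusted p = 0.439). Mtpn (myotrophin), the target through which miR-375 was linked to insulin release, differed by 0.05 ± 0.12. Of 5 targets of miR-184, 4 were above 0 (median 0.17) and none had an unadjusted p under 0.05 in limma. Crtc1, a coactivator of CREB, differed by 0.23 ± 0.13 and Inppl1, a lipid phosphatase, by 0.20 ± 0.12. Ago2, the Argonaute that miR-184 restrains, stood at 6.08 and 6.17 in siNTC and 6.28 and 6.31 in siNF90, apart by 0.17 ± 0.12 (limma adjusted p = 0.682).

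Of 17 targets of the cluster, 9 were above 0 and 8 below it (median 0.02), and 3 had an unadjusted p under 0.05, against 10.3% of all genes. Snai2, a transcription factor of cell migration, stood at 5.36 and 5.23 in siNTC and 4.72 and 4.92 in siNF90 (-0.47 ± 0.13, limma adjusted p = 0.409), and Cacna2d1, a subunit of calcium channels, at 6.30 and 6.37 against 6.72 and 6.74 (0.40 ± 0.12, limma adjusted p = 0.409). Foxo1, the forkhead factor that insulin signalling keeps out of the nucleus, differed by -0.11 ± 0.14. Mtpn and Foxo1 were named after their values were seen.

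Of 15 genes of microRNA processing and silencing, 11 were below 0 (median -0.12) and 0 passed over all genes, while 2 had an unadjusted p under 0.05 in limma, against 10.3% of all genes. Tnrc6c, a silencing partner of Argonaute, differed by 0.38 ± 0.13, the helicase Ddx5 by -0.33 ± 0.12, and Ilf2, which encodes NF45, by -0.28 ± 0.13.

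The hairpins were folded to describe a feature that the choice of genes did not use, since NF90 binds double-stranded RNA. Among 1005 mouse hairpins of the RefSeq table the median had 69.0% of its bases paired. A longer hairpin has room for more pairs, and the median length was 79 bases. The Mir7-1 hairpin, of 108 bases, had 81.5% paired in 44 base pairs, and 97.9% of hairpins had fewer pairs. The Mir7-2 hairpin, of 97 bases, had 74.2% paired in 36 base pairs, more pairs than 82.8% of hairpins. Mir7b, of 111 bases, also had 36 pairs, with 64.9% of its bases paired. The longest stem without a mismatch or bulge was 8 pairs in Mir7-1, 7 in Mir7-2 and 9 in Mir7b, and the median over all hairpins was 9. Of the others, Mir96 had the most pairs, 39, in a hairpin of 106 bases, and Mir375 the fewest, 21, in a hairpin of 64 bases. Mir184 (78.3%) and Mir183 (77.1%) had a larger share of bases paired than Mir7-2. These are predictions of the RefSeq hairpin alone and carry no measurement of binding.

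The beta cell markers Iapp, Slc30a8, Chga and G6pc2 (named after their values were seen) were the highest of those measured and lay between 9.36 and 10.58 on all arrays. The lowest, Neurod1, also named after its values were seen, lay between 3.65 and 3.98. All 10 measured beta cell markers stood at or above the median level of all genes, 1.84. Nkx6-1 (0.45 ± 0.12) and Mafa (0.38 ± 0.15), which encode beta cell transcription factors, had the largest differences of these, without passing over all genes (limma, adjusted p = 0.397 and 0.481). The log2 values of 10 exocrine and duct markers summed to 15.2 to 16.8 in siNTC and 16.4 to 17.3 in siNF90. Of the 10, 2 reached the median level of all genes, Krt7 (3.89 to 4.13, as high as Neurod1) and Bhlha15 (2.94 to 3.34). Those of 13 stromal, endothelial and blood markers summed to 16.8 to 17.6 and 17.8 to 18.6, and without Cd68, a sum chosen after seeing the data, to 13.4 to 14.3 and 13.3 to 14.2, which overlap. Of these 13, Cd68, a lysosomal protein of macrophages, reached the median level, with a difference of 1.12 ± 0.12 (limma, adjusted p = 0.342), and the defining blood marker Ptprc, named after its values were seen, stood at 0.92 to 1.33. Their part in the Mir7-2 difference was not tested.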

How the data were processed

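The authors deposited 1 table of log2 values, 1 per probe set and array, for which the submitters' processing notes name Transcriptome Analysis Console. Of its version, background correction, normalization and summarization, nothing is given in the sources used here. Base 2 was inferred, since every array has 5 to 10 values beyond what a natural logarithm of a scanner reading (at most 65535) could give. Precision is limited by the small number of arrays.

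Gene symbols came from the platform annotation, and a gene with several probe sets was read from its brightest on average. The comparison was fitted over all genes with limma 3.58.1 in R 4.3.3 (lmFit and eBayes without a trend, 2 residual degrees of freedom), with two-sided p-values, Benjamini-Hochberg adjustment and a threshold of 0.05. The SE given with each difference is the moderated one of this fit. The script was tested on simulated data. Hairpins were folded with ViennaRNA 2.7.2.

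The members and the lists of regulators, targets and markers, from general knowledge, were chosen with earlier results of these data known. Named are the 7 members, their neighbours, Hnrnpk, Cdr1, Oip5os1, Ago2 and Ilf2, the microRNA gene most alike to each member, and from each list those that passed or the 2 with the largest difference among genes at or above the median level. Other names are said to be chosen afterwards, or complete the list of genes acting on miR-7. Same-numbered arrays did not deviate together (correlation -0.02 over genes), so the numbers were not taken as pairs.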

Additional observations from a re-analysis of the deposited data

How the results depend on the processing

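With a variance prior that varies with expression level, 101 genes passed (52 higher, 49 lower), 1 microRNA gene (Mir690, lower) and 1 listed gene (Cd68, higher). These counts were 0 without the trend, with the replicate number as a block, with a robust prior, quantile normalization, median centring, a filter at the median level or probe sets averaged per gene, and 0 to 0 when each array was left out in turn. No paired design is stated, and the replicate block left 1 residual degree of freedom. The filter removed Mir184, Mir182, Mir96 and Mir183. The Mir7-2 difference was 1.18 with quantile normalization and 1.15 with median centring. The other alternatives that keep all 4 arrays leave it at 1.14 by construction, since they do not change the group means of its 1 probe set. When an array was left out it ran from 0.88 (without the first siNTC array) to 1.39 (without the second). A lone array is then assumed to vary like the other group. Mir7-1 ran from -0.36 to -0.12, Mir375 from -0.33 to -0.07 and Mir182 from 0.10 to 0.36 without an array, with no change of sign. Mir96 (-0.15 to 0.07) and Mir183 (-0.17 to 0.05) did not keep their sign. The table has no measure of background, and with 2 arrays a group the standard errors of the 7 differences were 0.12 to 0.22.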

Other observations

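Other microRNA genes named for islets or beta cells stood low on these arrays, as most microRNA genes did. Of 23 measured, 4 reached the median level of all genes, where 150 of all 478 microRNA genes reached it. Of the 23, 13 had a difference above 0 and 9 below it (median 0.07). In limma 0 passed over all genes, and 1 had an unadjusted p under 0.05, against 10.3% of all genes. Of the 4, Mir9-3, from a family of neural microRNAs, differed by 0.36 ± 0.20 (SE, limma adjusted p = 0.595) and Mir212 by 0.32 ± 0.13 (0.492). Among the 13 microRNA genes typical of other cell types the median was 0.05. In limma 1 of them had an unadjusted p under 0.05 (10.3% of all genes did) and 0 passed. As 0 reached the median level, no pair is named.

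Patterns over the 4 arrays were compared as deviations from each gene's own mean, among 471 microRNA genes outside the set. The gene most alike to Mir7-2 was Mir543, with a mean absolute difference of 0.10 between the deviations. Mir543 stood at 1.97 and 2.76 in siNTC and 3.46 and 3.73 in siNF90. Mir7-1 was most alike to Mir3471-1 (0.03), Mir375 to Mir669g (0.05), Mir184 to Mir30c-2 (0.01), Mir182 to Mir7b (0.04), Mir96 to Mir881 (0.02) and Mir183 to Mir148b (0.01). Within the set, Mir7-1 and Mir7-2 were the least alike pair (0.69), followed by Mir7-2 and Mir375 (0.67). The deviations were not scaled, so what is alike or unlike Mir7-2 follows the size of its difference. That size was known when the genes were chosen, and nothing further is read from it.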
